A study of Homo sapiens with 2 samples.

Results

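Hypoxia targets outside glycolysis were examined as a set of 10 genes, taken by symbol from the deposited tables: CA9, CA12, NDRG1, VEGFA, ADM, ANKRD37, BNIP3, P4HA1, ANGPTL4 and LOX. All 10 were found among the 60619 genes of the tables, and all 10 lay above the filter on low counts, as did 13304 genes in all. RNA came from HBEC-3KT, an immortalized line of human bronchial epithelial cells, grown on gelatin-coated plates in pneumocult EX medium for 4 to 5 days. One culture received a lentivirus with the pLenti6-hCBS construct, which carries human CBS, the gene of cystathionine beta-synthase, an enzyme that consumes homocysteine. The control had received the empty pLenti6 vector. Virus was applied for 4 to 8 hours and both cultures were selected with blasticidin at 10 µg/mL. Each group held 1 library, so no test between the conditions was possible and the spread between cultures is unknown.

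Cells sense oxygen through hypoxia-inducible factors, HIFs. Prolyl hydroxylases mark the HIF alpha subunits for destruction while oxygen is present, and when oxygen is short the alpha subunits persist, pair with ARNT and bind DNA at a short core motif. The targets beyond glycolysis cover acid handling, the growth of blood vessels, removal of mitochondria and the maturation of collagen. Several are used as markers of poorly oxygenated tissue, although other signals also act on them.

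The core motif is ACGTG or GCGTG, and it was searched on both strands in RefSeq promoter windows (GRCh38.p14), from 250 bases before to 50 bases after the start of each gene. Windows were found for 8 of the members, all but NDRG1 and VEGFA, and each of these 8 held at least 1 match. Among genes above the filter, 63.7% of 9352 windows held a match, against 48.4% of 27305 windows of all genes in the promoter table. BNIP3 had 6 matches, LOX 4, ANKRD37 3 and CA12 2, and CA9, ADM, P4HA1 and ANGPTL4 had 1 each. Of the 9352 windows, 7.21% held 4 or more. The palindrome CACGTG, which counts as a match on each strand, is present in ANKRD37 and BNIP3 and is also the E-box of other factors. Only 1 stretch is shown per gene, so some matches of CA12, BNIP3 and LOX are left out. The stretches below are shown so that the members' matches can be compared. Each is 30 bases long, lies before the RefSeq start used here, and is given on the strand of the gene with the matches in capitals. That start differs from the outer end of the gene in the annotation: by the gene coordinates given below, the stretches of CA9, CA12, ADM, ANGPTL4, ANKRD37 and P4HA1 lie inside the gene, and those of BNIP3 and LOX outside it. GENCODE 29 places exons of some transcript, on either strand, over all 250 bases before the RefSeq start in CA12, ADM and ANKRD37, over 117 in CA9, 108 in P4HA1, 101 in LOX, 90 in BNIP3 and 4 in ANGPTL4.
CA9, chr9:35673897-35673926, plus strand: ctcgtttccaatgCACGTacagcccgtaca
CA12, chr15:63382064-63382093, minus strand: ggcggatctcaccCACGCctgccagcagct
ADM, chr11:10304959-10304988, plus strand: agagcaggagcgcGCGTGgctgaggaaaga
ANGPTL4, chr19:8363908-8363937, plus strand: gggaaagaagagtCACGTctcccacggttc
ANKRD37, chr4:185396676-185396705, plus strand: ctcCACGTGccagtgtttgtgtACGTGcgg
BNIP3, chr10:131982041-131982070, minus strand: cgcgCACGCgccgCACGTGccaCACGCacc
P4HA1, chr10:73096936-73096965, minus strand: gtgtgatcgagctCACGTagcgagggctgc
LOX, chr5:122078350-122078379, minus strand: cttgCACGTttccaatcgcattACGTGaac

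**Figure D1:**
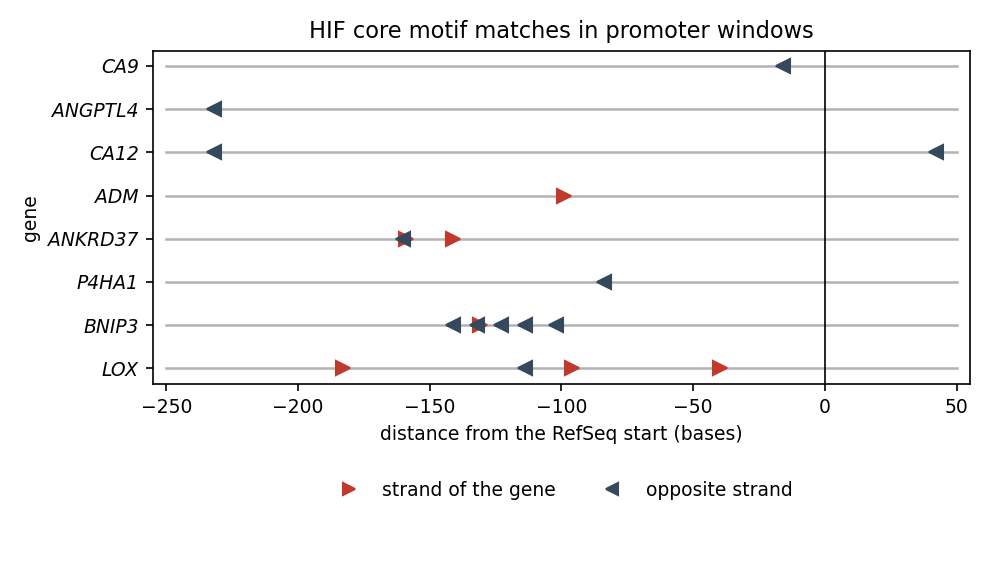
Positions of core motif matches in the promoter windows of 8 members, with distance from the RefSeq start in bases on the x axis and genes ordered from the lowest log2 fold (top) to the highest (bottom). Arrowheads give the strand of each match; the 2 members at the bottom, BNIP3 and LOX, hold the most matches, with 6 and 4.

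Counted from the RefSeq start, and not from the outer end of the gene, the match in CA9 lay at position -18, the one in P4HA1 at -86 and the one in ADM at -101, whereas that in ANGPTL4 lay at -234. Among the 8 members with a window, those with the most matches were not those with the largest folds, as the map of the matches shows. NDRG1 and VEGFA are not part of this comparison, and bases outside the windows were not searched. Whether matches relate to the folds was not tested. Over all genes above the filter with a window, the median log2 fold was 0.04 for the 5954 genes with a match and -0.03 for the 3398 without. A log2 fold of -1 or less was found in 3.78% of the former and 5.62% of the latter. A match describes the letters in a window and does not show that a factor binds there.

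Depth was alike in both libraries, with 20785957 estimated counts for CBS and 20433062 for the empty vector. CBS itself was at 3669 counts against 280 in the control, and its near-identical copy CBSL was at 4378 against 343, so the split between the copies is uncertain.

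Markers of cell type also differed between the libraries. All 9 basal airway markers lay above the filter and summed to 4521 TPM (a transcript level scaled for length and depth) with CBS and 7120 TPM in the control. The basal keratins KRT14, KRT15, KRT17 and KRT5 were at log2 folds of -2.15, -1.94, -1.49 and -0.72. ITGB4 was at -0.31, ITGA6 at -0.10, the basal regulator TP63 at -0.04, DLK2 at 0.14 and NGFR at 0.93. The 4 epithelial markers summed to 3777 and 2345 TPM, higher with CBS, with KRT18 at 0.68, EPCAM at 0.54, KRT8 at 0.46 and CDH1 at -0.24. The 5 secretory markers summed to 8.80 and 50.4 TPM, nearly all from SLPI with 70 and 405 counts, at -2.55, and SCGB3A1 had no count. Of the 4 ciliated markers FOXJ1 had no count and DNAH5 had 94 and 26 counts, at 1.59, and the list sums of 1072 and 770 TPM were nearly all TUBB4B, a widely expressed tubulin.

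Of the 6 endothelial markers, which summed to 8.46 and 9.50 TPM, CDH5 had 87 and 7 counts, at 2.86, EGFL7 was at -0.54 and TEK had no count. Of the 6 immune markers PTPRC, CD3E and LYZ had no count. The sums of 48.9 and 144.8 TPM came mostly from CD68, with 619 and 2259 counts and a log2 fold of -1.96. CD14 had 225 and 203 counts and was at 0.05 (-0.23 to 0.33). Of the 6 fibroblast markers COL1A1 alone lay above the filter, with 132 and 270 counts, and COL1A2, COL3A1, DCN and LUM had no count, with sums of 3.18 and 3.91 TPM. The part of these differences in the values below was not tested.

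As a group, the members were lower in the CBS library. Their transcripts summed to 627 TPM with CBS and 1532 TPM in the control, a 2.44-fold difference. In these bulk libraries, fewer cells with a transcript and less of it per cell cannot be told apart. A gene was counted as lower or higher when the libraries differed at least 2-fold after TMM scaling and the 95% counting interval of the ratio excluded 1. By this rule 6 of the 10 members were lower in the CBS library and none was higher, against 5.28% and 1.41% of all 13304 genes. The interval alone lay below a ratio of 1 for 9 of 10 members, against 31.1% of all genes, and that of LOX held 1. The median log2 fold was -1.12 over the members and 0.00 over all genes. Intervals are exact (Clopper-Pearson) and cover counting error of these libraries only.

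**Figure D2:**
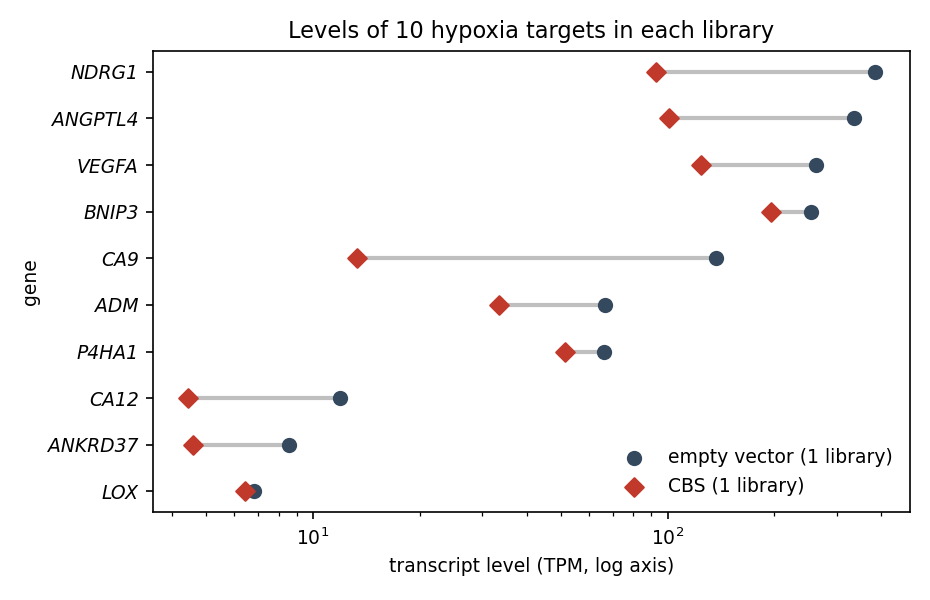
Transcript level of each member in TPM on a log axis, with 1 point for the empty-vector library (circle) and 1 for the CBS library (diamond), ordered by the control level. NDRG1 and ANGPTL4 were the highest in the control, at 385 and 334 TPM, and BNIP3 was the highest with CBS, at 195 TPM.

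The order of the members' levels differed between the libraries. In the control it ran NDRG1, ANGPTL4, VEGFA, BNIP3, CA9, ADM, P4HA1, CA12, ANKRD37 and LOX, from 385 to 6.82 TPM, a 56.5-fold range. With CBS it ran BNIP3, VEGFA, ANGPTL4, NDRG1, P4HA1, ADM, CA9, LOX, ANKRD37 and CA12, from 195 to 4.43 TPM, a 44.1-fold range. ADM and P4HA1 were neighbours in the control with nearly equal levels, 66.6 and 66.3 TPM, and stood apart with CBS, at 33.4 and 51.3 TPM. Of the summed difference in TPM, NDRG1 made up 32.3%, ANGPTL4 25.8%, VEGFA 15.3% and CA9 13.7%. BNIP3 rather than NDRG1 held the largest share of the members' transcripts with CBS, 31.2% against 16.5% in the control.

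The carbonic anhydrases come first among the members by role. These enzymes interconvert carbon dioxide and bicarbonate, and CA9 and CA12 do so on the outer face of the cell. CA9 (ENSG00000107159, chromosome 9, 35673856 to 35681159, GRCh38) had 281 counts with CBS and 2979 in the control, or 13.3 and 137 TPM. It was 11.3-fold lower in the CBS library (interval 10.0 to 12.9), at rank 15 from the lowest log2 fold of all 13304 genes. CA9 lay at the 92.8th percentile of TPM in the control and at the 47.4th percentile with CBS. CA12 (ENSG00000074410, chromosome 15, 63321378 to 63382161) had 268 and 747 counts, or 4.43 and 11.9 TPM. It was 2.98-fold lower (2.59 to 3.44), at rank 247. CA9 shares 643 of its 1670 exonic bases with ARHGEF39 on the opposite strand, which had 345 and 429 counts, and whether counting used strand is not given in the sources used here.

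Of the 13 other carbonic anhydrases, 4 lay above the filter and 1 was lower by the 2-fold rule. CA11, a family member without enzyme activity, had 69 and 192 counts and a log2 fold of -1.51 (-1.99 to -1.17). CA2, the cytosolic enzyme, had 260 and 378 counts and was at -0.63 (-0.87 to -0.41). The intervals of mitochondrial CA5B, at -0.32 (-0.77 to 0.10), and cytosolic CA13, at -0.04 (-0.44 to 0.35), held a ratio of 1. CA9 made up 71.2% of the TPM of all 15 family members in the control and 29.4% with CBS. Its level was 5.43 times that of CA2 in the control and 0.736 times with CBS, so the order of these genes was the opposite in the CBS library.

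Other genes of acid and lactate transport differed less. Of 20 such genes 13 lay above the filter, none was lower or higher by the 2-fold rule, and the median log2 fold was -0.05. The monocarboxylate transporters SLC16A1 and SLC16A3 were at -0.48 (-0.54 to -0.41) and -0.40 (-0.44 to -0.37). The anion exchanger SLC4A3 was at -0.61 (-0.84 to -0.40), and SLC4A11, another membrane transporter of this family, was at 0.69 (0.50 to 0.90).

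The secreted members VEGFA, ADM and ANGPTL4 act on blood vessels. VEGFA, the main growth factor of endothelial cells (ENSG00000112715, chromosome 6, 43770184 to 43786487), had 4891 and 10553 counts, or 124 and 262 TPM. It was 2.31-fold lower with CBS (2.23 to 2.39), at rank 468. ANGPTL4, an inhibitor of lipoprotein lipase that also acts on vessels (ENSG00000167772, chromosome 19, 8363289 to 8374373), had 2552 and 8585 counts, or 101 and 334 TPM. The difference was 3.60-fold (3.44 to 3.77), at rank 140. ADM, which encodes the vasodilator peptide adrenomedullin (ENSG00000148926, chromosome 11, 10304680 to 10307397), had 647 and 1246 counts, or 33.4 and 66.6 TPM. It was 2.06-fold lower (1.87 to 2.27), at rank 649 and just inside the 2-fold rule with a log2 fold of -1.04. With plain library totals, in TPM and after correction for GC content and transcript length, ADM was at -0.96, -0.98 and -0.90 and was no longer counted.

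Relatives of VEGFA were lower by differing amounts. PGF, placental growth factor, had 209 and 500 counts and a log2 fold of -1.34 (-1.60 to -1.12), close to that of VEGFA at -1.21 (-1.26 to -1.16). VEGFB was at -0.66 (-0.81 to -0.52) and VEGFC, a lymphatic growth factor, at -0.38 (-0.48 to -0.29). VEGFA made up 55.2% of the TPM of the 5 VEGF ligands with CBS and 65.5% in the control. The endothelial receptors KDR and FLT1 had no count in either library. Of the coreceptors, NRP2 was at -0.73 (-0.90 to -0.57) and NRP1 at 0.51 (0.44 to 0.57), in opposite directions.

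The adrenomedullin group held 8 genes besides ADM, 4 of them above the filter. ADM2, which encodes a related peptide, had 43 and 302 counts and a log2 fold of -2.77 (-3.41 to -2.45), further from 0 than ADM. ACKR3, a scavenging receptor for adrenomedullin and chemokines, had 229 and 978 counts and was at -2.17 (-2.41 to -1.98). CALCRL, the signalling receptor, had 26 and 34 counts. Of its partners, RAMP2 had 2 and 0 counts, and RAMP1 and RAMP3 had none. Among relatives of ANGPTL4 none of 9 angiopoietin and angiopoietin-like genes reached the filter, so ANGPTL4 was the one member of its family expressed at a level that could be compared.

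ANGPTL4 is also a known target of the fatty acid receptors called PPARs, and other PPAR targets were counted beside it. Of 20 genes 10 passed the filter, their median was -0.00 on the log2 scale, and none was lower or higher by the 2-fold rule. CPT1A, which brings fatty acids into mitochondria, had 1326 and 617 counts, a ratio of 2.01 (1.82 to 2.21) that fell just short of the rule with the prior count of 5. SLC25A20, the carnitine carrier, was at 0.92 (0.57 to 1.36). FABP5, a fatty acid binding protein, was at -0.73 (-0.85 to -0.61) and ACADVL, an enzyme of fatty acid oxidation, at -0.56 (-0.62 to -0.51). The value of ANGPTL4, -1.85 (-1.91 to -1.78), lay below all of these.

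NDRG1, BNIP3 and ANKRD37 are intracellular members. NDRG1, a stress-induced gene linked to differentiation (ENSG00000104419, chromosome 8, 133237171 to 133302022), had 3927 and 16084 counts, or 92.8 and 385 TPM. It was 4.38-fold lower in the CBS library (4.23 to 4.54), at rank 81. NDRG1 was the 329th most abundant of the filtered genes by TPM in the control and the 1570th with CBS. Its relatives did not show a difference of that size. NDRG3 had 1358 and 1214 counts and a log2 fold of 0.06 (-0.05 to 0.18), NDRG2 was at -0.33 (-0.90 to 0.18) and NDRG4 at -0.31 (-1.19 to 0.45), and each interval held a ratio of 1. NDRG1 was 12.3 times as abundant as NDRG3 in TPM in the control and 2.61 times with CBS.

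BNIP3, a receptor that marks mitochondria for removal by autophagy (ENSG00000176171, chromosome 10, 131966455 to 131982013), had 4618 and 6045 counts, or 195 and 253 TPM. Its difference was 1.40-fold (1.35 to 1.46), at rank 2230, and it was not counted as lower. BNIP3 has many pseudogene copies, and the one with the most counts, BNIP3P4, had 15 and 29. The paralog BNIP3L, with the same role, was further apart, with 1642 and 3218 counts and a log2 fold of -1.07 (-1.16 to -0.98) against -0.49 (-0.54 to -0.43) for BNIP3. BNIP3 was 3.20 times as abundant as BNIP3L with CBS and 2.18 times in the control. Of the other mitophagy genes, 10 of 12 above the filter with BNIP3L among them, 1 was lower by the 2-fold rule and the median was -0.04. FKBP8 was at -0.58 (-0.63 to -0.53), PINK1 at -0.48 (-0.63 to -0.34) and PHB2 at 0.45 (0.39 to 0.51).

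ANKRD37, a small ankyrin repeat protein (ENSG00000186352, chromosome 4, 185396021 to 185400628), was the member with the fewest counts. It had 39 and 76, or 4.60 and 8.57 TPM, and was 2.09-fold lower with CBS, with a wide interval (1.40 to 3.15). With the prior count of 5 its log2 fold was -0.97, just outside the 2-fold rule, and it was counted as lower with a prior count of 1. ANKRD37 shares 909 of its 2580 exonic bases with UFSP2 on the opposite strand. UFSP2 had 631 and 487 counts and a log2 fold of 0.27 (0.10 to 0.45), in the other direction, and without strand the reads of the shared bases cannot be assigned to one gene.

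The last members act on collagen. P4HA1, the catalytic subunit of collagen prolyl 4-hydroxylase (ENSG00000122884, chromosome 10, 73007217 to 73096974), had 1988 and 2608 counts, or 51.3 and 66.3 TPM. It was 1.40-fold lower with CBS (1.32 to 1.49), at rank 2212. Its paralog P4HA2 had 1525 and 2961 counts and a log2 fold of -1.05 (-1.15 to -0.97), against -0.49 (-0.57 to -0.41) for P4HA1. P4HA1 was 0.731 times as abundant as P4HA2 in the control and 1.07 times with CBS, in TPM. Of the other collagen-modifying genes, 13 of 15 lay above the filter, P4HA2 among them, with a median of -0.08, and 1 was lower by the 2-fold rule. PLOD1, a lysyl hydroxylase, was at -0.21 (-0.29 to -0.14), CRTAP, of the prolyl 3-hydroxylase complex, at -0.21 (-0.28 to -0.13), and PPIB, a prolyl isomerase, at 0.24 (0.19 to 0.30). The median of this list was 0.03 in TPM and 0.07 after the correction for GC content and length.

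LOX, which cross-links collagen and elastin (ENSG00000113083, chromosome 5, 122063195 to 122078285), was alike in both libraries. It had 385 and 381 counts, or 6.44 and 6.82 TPM. Its ratio of CBS over control was 0.944, with an interval that held 1 (0.817 to 1.09). A 2-fold difference between these libraries lay outside that interval. LOX shares 138 of its 5547 exonic bases with SRFBP1 on the opposite strand, which had 425 and 289 counts. Its relative LOXL2 was 18.4 times as abundant as LOX with CBS and 22.1 times in the control, in TPM, with 5761 and 7521 counts and a log2 fold of -0.48 (-0.53 to -0.43). LOXL3 had 84 and 38 counts and was at 0.96 (0.48 to 1.64).

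**Figure D3:**
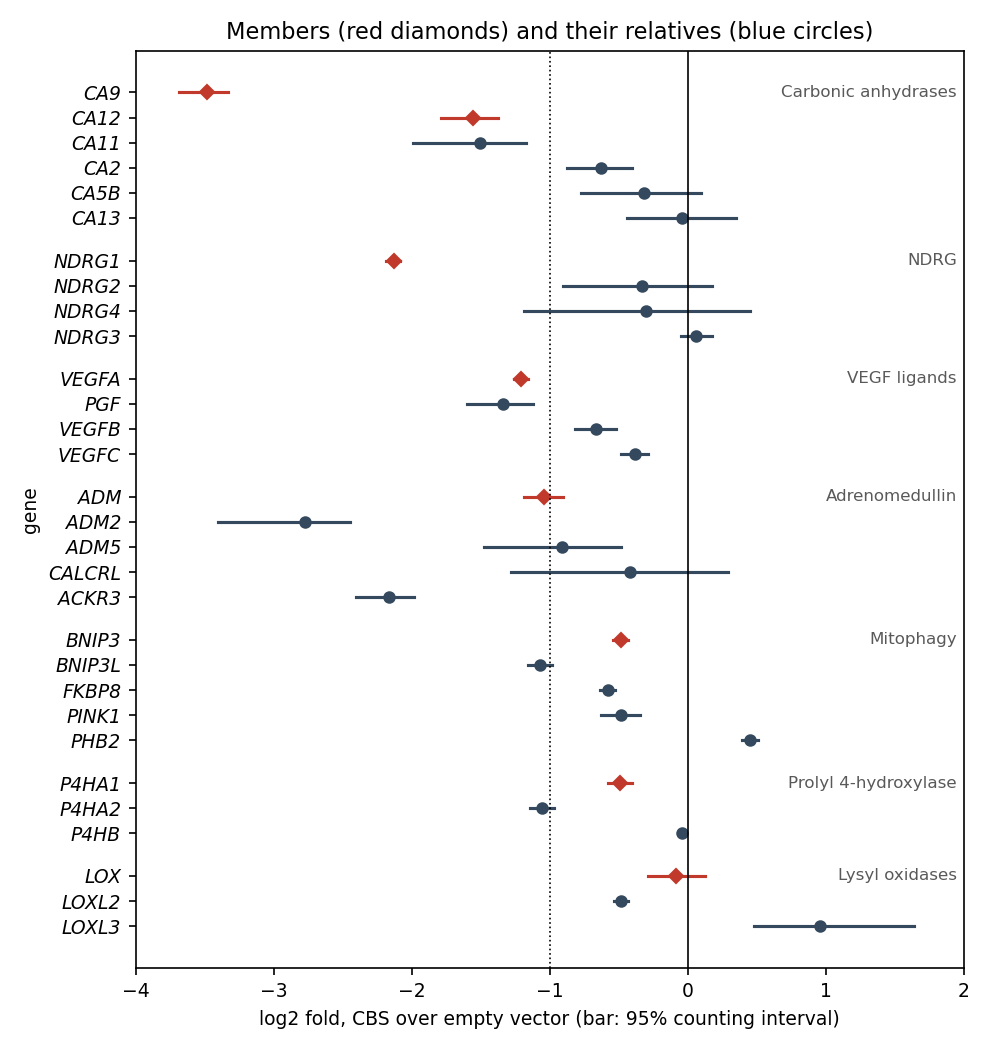
Log2 folds, CBS over empty vector, of all members but ANGPTL4 and ANKRD37 (red diamonds). Blue circles are a selection of their relatives or partners above the filter. Bars are 95% counting intervals, and the dotted line marks a 2-fold lower level. NDRG1 lay at -2.13 with NDRG3 at 0.06, whereas BNIP3 and P4HA1, both at -0.49, lay above their relatives BNIP3L and P4HA2, at -1.07 and -1.05.

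The plot of members beside their relatives shows several arrangements. CA9 and NDRG1 were further below 0 than any relative above the filter. VEGFA and PGF had intervals that overlapped. ADM, BNIP3, P4HA1 and LOX each had a relative further below 0, namely ADM2, BNIP3L, P4HA2 and LOXL2, with an interval that did not overlap their own. The same held for CA12 beside CA9, which is itself a member. Whether these relations hold between cultures was not tested.

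Other hypoxia-responsive genes outside glycolysis were also mostly lower. Of 52 genes 48 lay above the filter and 18 were lower by the 2-fold rule, against 5.28% of all genes. None was higher, against 1.41% of all genes, and the median log2 fold was -0.65. The interval lay below a ratio of 1 for 41, against 31.1% of all genes, above it for 3 and held it for 4. This list, like the others, was chosen with earlier results of these data known. PPFIA4, a liprin, had 128 and 734 counts and a log2 fold of -2.57 (-2.90 to -2.35). IGFBP3, which binds insulin-like growth factors, had 767 and 3391 counts and was at -2.23 (-2.36 to -2.13). SPAG4 was at -2.06 (-2.29 to -1.88), and MIR210HG, the host transcript of the hypoxia-induced microRNA miR-210, was at -2.05 (-2.25 to -1.89). The 3 genes with an interval above 1, named after their values were seen, were NT5E at 0.73, the transferrin receptor TFRC at 0.72 and the receptor MET at 0.55.

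For the regulators of the pathway, 9 of 10 genes lay above the filter with a median of -0.22. EGLN3, an oxygen sensor that is itself induced by HIF, had 372 and 918 counts and was at -1.39 (-1.58 to -1.23), and ARNT2 had 110 and 280 counts and was at -1.40 (-1.78 to -1.12). EGLN1, the main oxygen sensor, was at -0.41 (-0.51 to -0.31) and EPAS1, which encodes HIF-2 alpha, at -0.38 (-0.45 to -0.32). HIF1A, named after its values were seen, had 33375 and 32556 counts and was at -0.06 (-0.08 to -0.04). HIF proteins are set largely after transcription and were not measured. Of 22 glycolysis genes, all above the filter, 19 had an interval below a ratio of 1, against 31.1% of all genes. PFKM, named after its values were seen, had an interval above that ratio, with a log2 fold of 0.17 (0.06 to 0.28). By the 2-fold rule 4 were lower, namely ENO2, SLC2A3, ALDOC and PFKFB4, against 5.28% of all genes, and the median was -0.37.

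**Figure D4:**
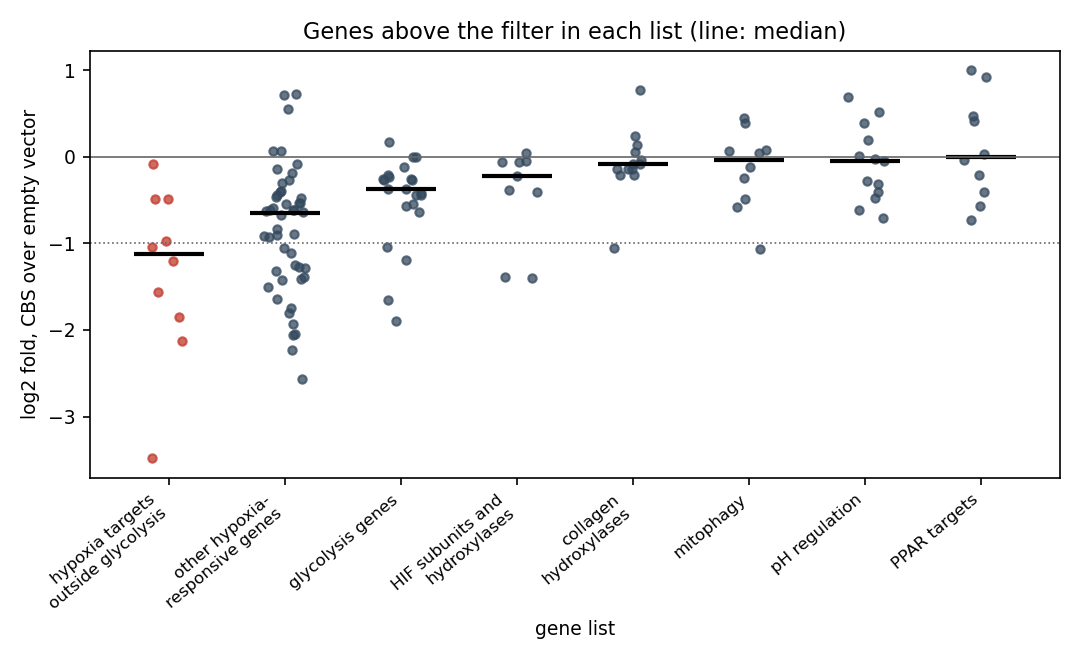
Log2 fold, CBS over empty vector, of each gene above the filter in 8 lists, with the median as a black line. The medians were -1.12 for the 10 members, -0.65 for 48 other hypoxia-responsive genes, -0.37 for 22 glycolysis genes and within 0.1 of 0 for the 4 lists at the right. Lists of relatives that are not shown had medians of -1.54 (adrenomedullin, 4 genes), -0.66 (VEGF, 5) and -0.47 (carbonic anhydrases, 4). Those of the NDRG genes (3) and lysyl oxidases (2) were -0.31 and 0.24.

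**Figure D5:**
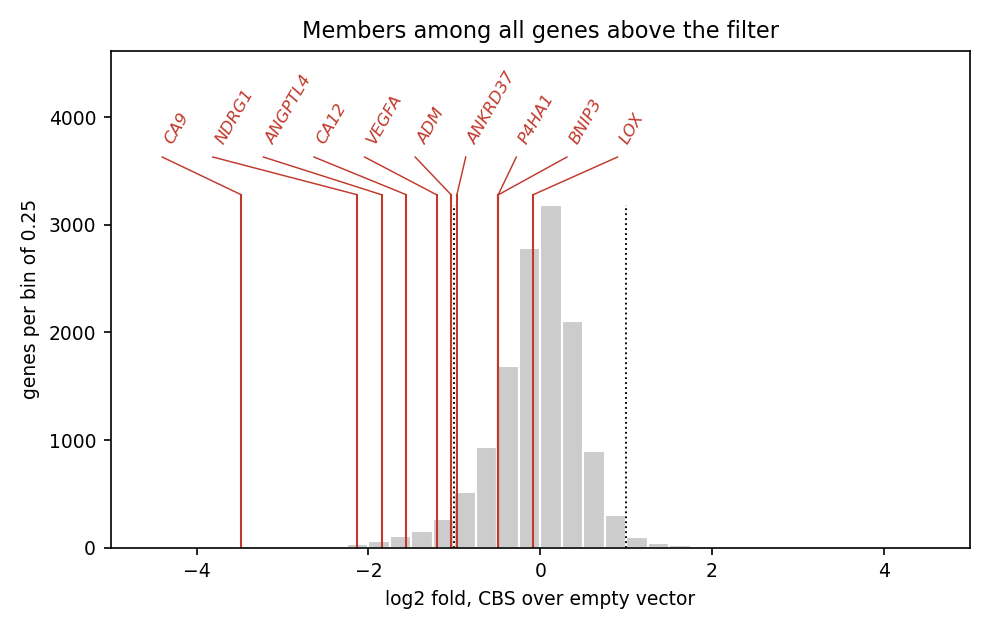
Histogram of the log2 folds of all 13304 genes above the filter in bins of 0.25, with red lines at the 10 members and dotted lines at a 2-fold difference. CA9 lies at -3.48, far from the bulk of genes, and LOX at -0.08 lies within it.

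The members covered a wide stretch of the distribution of all genes, as the histogram shows. CA9, NDRG1, ANGPTL4, CA12, VEGFA and ADM lay among the lowest 5% of log2 folds, from percentile 0.113 for CA9 to 4.88 for ADM. ANKRD37 lay at percentile 5.61, P4HA1 at 16.6 and BNIP3 at 16.8, and LOX lay at rank 5589. Abundance in the control did not order the folds. BNIP3 at 253 TPM and VEGFA at 262 TPM were alike in level but differed 1.40-fold and 2.31-fold between the libraries, while CA12 at 11.9 TPM differed 2.98-fold.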

How the data were processed

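RNA from 2 cultures of HBEC-3KT cells was sequenced on the DNBseq platform, per the labels' protocols. Per the submitters' processing notes, Trimmomatic 0.39, STAR 2.6.1d, RSEM 1.3.2 and GRCh38 were used, with no role stated for any. Gene annotation and strandedness are not given in the sources used here. Expected counts and TPM for each gene are as the authors deposited them, and the former were rounded before use. Genes with at least 10 counts in 1 library and a mean of 1 CPM were kept. TMM factors (edgeR 4.0.16, R 4.3.3) were 1.03 for CBS and 0.975 for the control, with no model fitted. Log2 folds carry a prior count of 5; intervals and linear folds do not. Intervals cover counting error only, and PCR-amplified reads are not independent molecules.

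The members and lists were chosen with earlier results of these data known. Named genes are the members and their expressed relatives. In each list, up to 4 genes with at least 100 counts in 1 library and the largest absolute log2 fold are also named. Others are named as partners, as cell type markers or where stated. Alternatives were DESeq2 1.42.0 size factors, library totals, log2(TPM + 1), other prior counts, filters and fold thresholds, and a correction for GC content and transcript length (GENCODE 29 transcripts, lowess span 0.3, statsmodels 0.14.6). Intervals were shifted by that correction, and in TPM genes were counted on the fold alone. List genes were matched by symbol, or by gene ID where symbols had changed. Promoter sequences are from RefSeq, of which the first listed start of each gene was used. Python 3.11.15 was used.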

Additional observations from a re-analysis of the deposited data

How the results depend on the processing

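All 10 members had a log2 fold below 0 under every alternative tried, except that ANKRD37 has no value with at least 100 counts. In the main setting 6630 of all 13304 genes lay below 0. The alternatives reuse the same libraries. For LOX, whose interval held a ratio of 1, the value was as near 0 as -0.0095, with library totals. The count of lower members was 5 with library totals and in TPM, where ADM left it, 7 with a prior count of 1, where ANKRD37 joined, 7 at a 1.5-fold threshold and 2 at a 4-fold threshold, CA9 and NDRG1. After correction for GC content and length it was 6, with ANKRD37 in and ADM out. The members' median log2 fold was -1.02 in TPM.

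Over all genes, 703 were lower in the main setting, 377 in TPM, 602 with library totals and 789 with a prior count of 1. After correction for GC content and length 615 were lower. Without the filter 1221 were lower and 466 higher, with at least 100 counts 460 and 112, at a 1.5-fold threshold 1712 and 934, at a 4-fold threshold 105 and 23, and with a prior count of 20 the number higher was 121. With library totals the medians were -0.0105 for collagen hydroxylases and -0.30 for glycolysis genes. In TPM they were -0.42 for the VEGF list, -1.21 for the adrenomedullin list, 0.034 for collagen hydroxylases, -0.51 for other hypoxia-responsive genes and -0.27 for glycolysis genes. Without the filter they were -0.49, -0.88 and -0.34 for the VEGF, adrenomedullin and glycolysis lists, and with at least 100 counts -0.40 for glycolysis genes. After correction for GC content and length they were -0.39 for the VEGF list, 0.0739 for collagen hydroxylases and -0.31 for glycolysis genes. The median of all genes moved from 0.00 to 0.07 with library totals and 0.09 in TPM. The cause of these shifts was not tested.

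Each group held 1 library, so no replicate was left out, and the values describe these libraries. No paired analysis was possible because each group held 1 library. Among the members, depth limits ANKRD37 most.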
